A study of Arabidopsis thaliana with 4 samples.

Results

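To see how gene expression changes when the lysine-specific demethylases LDL1 and LDL2 are lost from plants that already lack SUVR5, the mRNA-Seq library of the *suvr5 ldl1 ldl2* triple mutant was compared with that of *suvr5-1*. *SUVR5* is mutated in both libraries, so the pair differs by the *ldl1* and *ldl2* mutations. They are 2 of the 4 libraries measured, and the other two, wild type Col-0 and the *ldl1 ldl2* double mutant, are given beside them. All 4 were made from poly(A) RNA of leaves from 3-week-old Arabidopsis plants grown in long days, and the named alleles are *suvr5-1*, a T-DNA insertion line, and *ldl1-2*. Each genotype had 1 library, so no value below has a replicate error, and the test used here compares the reads of 2 libraries, not 2 genotypes. Whether a genotype's leaves came from one or several plants is not given in the sources used here.

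The deposited data are the genome positions of mapped reads, and their positions matched the gene models of the TAIR10.1 annotation within 30 bp only along 6 stretches of the 5 nuclear chromosomes. These stretches covered 50.8 Mb, or 42.7% of the assembly, and held 17042 of the 37899 annotated genes. Of these, 12091 had at least 1 read in *suvr5-1* or in the triple mutant and were tested, and all of them are described here, in both directions. *SUVR5* and *LDL1* lie outside the stretches and were not analysed here.

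SUVR5 is a SET-domain protein with zinc fingers that bind DNA, and it is required for dimethylation of histone H3 lysine 9 (H3K9me2), a mark of silent chromatin, at its target loci. LDL1 and LDL2 are homologues of human LSD1, an enzyme that removes methyl groups from histone H3 lysine 4, a residue whose methylation accompanies active genes. LDL1 was found in a complex with SUVR5, and in Arabidopsis LDL1 and LDL2 are known for their part in flowering time through repression of *FLC*, a MADS-box gene that delays flowering.

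Reads starting in the merged exons of each gene were counted and expressed as RPKM, in which the reads of a gene are divided by its exon length in kilobases and by the library's reads on genes in units of 1000000. Reads on genes numbered 4610852 in *suvr5-1* and 2989172 in the triple mutant, against 2952289 in Col-0 and 2584661 in *ldl1 ldl2*. A gene with no read in a library could have a level of up to 3 reads there, which for 1 kb of exon is 0.651 RPKM in *suvr5-1* and 1.00 RPKM in the triple mutant. Intervals and this limit cover counting error only. Distinct positions and strands numbered 12.8% of the nuclear reads in *suvr5-1* and 15.7% in the triple mutant, and the libraries carried no molecular identifiers. No read of any library started in the 373 exons made wholly of 30-base stretches that occur again in the genome, whereas 165.6 reads per kb in *suvr5-1* and 106.7 in the triple mutant started in the 62173 exons without such stretches. Levels of genes with close copies are therefore understated in every library. Among genes named below by the rule stated with the processing, fewer than 90% of the 30-base exon stretches occur once for *SAUR63* (58.6%), *AT1G29430* (64.6%), *CAB1* (66.8%), *CRK6* (67.8%), *AT1G21313* (48.7%), *AT1G21320* (78.2%), *ESM1* (75.4%), *EXT3* (76.3%), *AT5G07410* (79.8%), *WAK3* (81.4%), *CRK13* (81.9%), *WAK1* (86.2%), *CBF2* (88.4%), *AGO3* (89.6%) and *CRK40* (89.7%), and for the SAUR genes of a run on chromosome 5 described with it. The share is not given for other genes named below, such as *CBF1* and *DREB1A*, which may also have close copies.

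*LDL2*, the mutated gene that could be measured (chromosome 3, 4478873 to 4481767, minus strand), was low in both mutants labelled *ldl2*. It had 25 reads in Col-0, 26 in *suvr5-1*, 8 in the double mutant and 5 in the triple mutant, or 3.00, 2.00, 1.1 and 0.593 RPKM. Both libraries with the *ldl2* mutation lay below both libraries without it. The ratio of the triple mutant to *suvr5-1* was 0.297 (95% exact conditional interval 0.0890 to 0.785, Benjamini-Hochberg adjusted P = 0.0245 by Fisher's exact test), which did not pass the rule for a call described next. The relatives *LDL3* (log2 ratio 0.26, 134 and 104 reads) and *FLD* (−0.23, 98 and 54 reads) were not called either.

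Genes were called when the RPKM ratio of the triple mutant to *suvr5-1* was above 4 in either direction and the adjusted P of a 2-sided Fisher's exact test was under 0.01. Ratios given for a gene with no read in one library set that library at 3 reads. They are bounds that leave out counting error in the other library, and they can be under 4-fold. Such a gene passed the ratio limit whatever its reads in the other library, and its adjusted P decided the call. By this rule 461 genes were higher in the triple mutant, 3.81% of those tested, and 178 were lower, 1.47%. Higher genes made up 72.1% of the 639 called genes. That split depended on the scaling: it was 49.4% when libraries were scaled by all nuclear reads and 61.6% when they were scaled by the median of gene ratios. Scaling by all nuclear reads moved the median log2 ratio of all genes by −0.13. Genes with reads in both libraries all moved by the same larger amount, which took *LDL2* from −1.75 to −2.05. With reads on genes as the scale, the median log2 ratio of the 12091 genes was 0.07, with quartiles of −0.31 and 0.63.

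Many calls rested on genes that were weakly read in one library. Of the 461 higher genes, 70 had no read in *suvr5-1* and 230 had fewer than 10 there, while 149 had at least 100 reads in the triple mutant. Of the 178 lower genes, 35 had no read in the triple mutant, 133 had fewer than 10, and 44 had at least 100 reads in *suvr5-1*. An adjusted P under 0.01 without regard to size was reached by 3858 genes, 2523 higher and 1335 lower. At a ratio above 16, 42 genes were higher and 20 lower. Counting each position and strand once gave 166 higher and 82 lower genes, and a test with a dispersion of 0.1 assumed between plants gave 112 and 15. The called genes were spread over all 5 chromosomes, with between 3.18% and 4.20% of the tested genes of a chromosome called higher. Exons shared with an overlapping gene occurred in 147 of the higher and 43 of the lower genes, against 4412 of all tested genes (36.5%), and their reads cannot be assigned to one of the overlapping genes. Not all such genes are marked where they are named below. Called genes of this kind include *EDS5*, *WRKY53*, *JAZ10*, *RCI2A*, *DREB1A*, *SHY2*, *XTH15*, *WAKL2*, *WRKY41*, *WRKY61*, *SAUR63*, *AT1G29450*, *AT5G02760*, *AT4G18970* and *AT3G18250*.

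**Figure D1:**
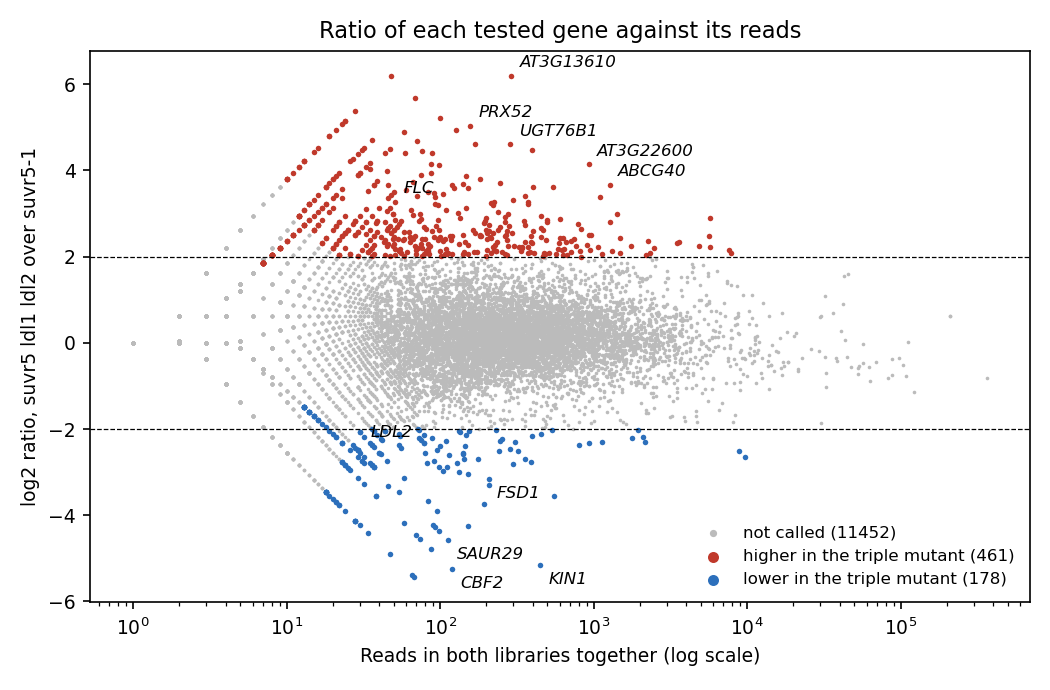
Log2 ratio of the triple mutant to *suvr5-1* for the 12091 tested genes against the number of reads of a gene in both libraries, on a log axis. Coloured points are the 461 genes called higher and the 178 called lower, and no gene with fewer than 10 reads in the pair of libraries was called lower.

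The levels of the called genes were also set among all 4 libraries. For the higher genes the median level was 2.26 RPKM in Col-0, 1.34 in *suvr5-1*, 3.01 in the double mutant and 10.3 in the triple mutant, and the triple mutant was the highest of the 4 in 394 of 461 (85.5%). *suvr5-1* was the lowest of the 4 in 187 of them (40.6%). For the lower genes the medians were 3.84, 7.45, 4.07 and 0.731 RPKM in the same order. The triple mutant was the lowest of the 4 in 118 of 178 (66.3%), and *suvr5-1* was the highest of the 4 in 122 (68.5%). These positions describe genes chosen by the ratio of the same 2 libraries, a choice that itself pushes these libraries to the extremes.

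The 12 largest increases among genes with at least 100 reads in the triple mutant were in genes of varied function. *AT3G13610*, which encodes feruloyl-CoA 6′-hydroxylase F6′H1, an enzyme of coumarin synthesis, had 1 read in Col-0, 6 in *suvr5-1*, none in the double mutant and 285 in the triple mutant. The ratio of the triple mutant to *suvr5-1* was 73.3 (95% interval 33.2 to 201, adjusted P = 9.13e-104 by Fisher's exact test). Some of its exon sequence is shared with an overlapping gene. *PRX52*, a class III peroxidase, had 27, 7, 4 and 149 reads in Col-0, *suvr5-1*, *ldl1 ldl2* and the triple mutant, a log2 ratio of 5.04 for the triple mutant over *suvr5-1*. *CSLG2*, a cellulose synthase-like gene, had 96, 26, 16 and 373 reads in that order (log2 ratio 4.47). In each of these genes the triple mutant stood above all other libraries, and in *PRX52* and *CSLG2* Col-0 stood above both *suvr5-1* and the double mutant.

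The other genes of the 12 are given next. *PYD4*, an aminotransferase of the pyrimidine degradation family, had 87, 6, 20 and 120 reads in Col-0, *suvr5-1*, *ldl1 ldl2* and the triple mutant (log2 ratio 4.95). The chitinase gene *ChiC* had 30, 14, 4 and 133 reads (3.87), and *AT1G30700*, of the berberine bridge enzyme family, had 27, 10, 6 and 159 (4.62). Chitinases cut chitin, the polymer of fungal cell walls. *ABCG40*, an ABC transporter that imports abscisic acid, had 141, 137, 24 and 1133 reads, or 10.3, 6.40, 2.00 and 81.7 RPKM (3.67). *AT3G22600*, a lipid transfer protein gene also named *LTPG5*, had 201, 75, 30 and 857 reads (4.14). In RPKM the double mutant was the lowest library for *ChiC*, *ABCG40* and *AT3G22600*. *MPK11*, a mitogen-activated protein kinase that responds to microbial patterns, differed from them, with 11, 18, 70 and 164 reads (3.81) and the double mutant above Col-0. *AT4G38560* (log2 ratio 3.71) and the long non-coding RNA *AT4G03985* (3.70) completed the set of 12, and both share exon sequence with another gene.

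Salicylic acid is the hormone of resistance to pathogens that live on living tissue. Its genes were the list with the largest share of members called higher. Of the 25 genes on the list 12 lay in the stretches and all were tested. Of these, 8 were called higher and none lower, against 3.81% and 1.47% of all tested genes. The median log2 ratio was 2.05 against 0.07 for all tested genes. All 12 were above 0. Genes of signal transport and synthesis were among them. *EDS5*, the transporter that exports the salicylic acid precursor from the chloroplast, had 41 reads in Col-0, 89 in *suvr5-1*, 91 in the double mutant and 367 in the triple mutant. *PBS3*, which conjugates isochorismate to glutamate, had 26, 172, 53 and 461 reads (log2 ratio 2.05), and *CBP60G*, a transcription factor that activates the synthesis genes, had 82, 229, 277 and 595 (2.00). *FMO1*, which makes N-hydroxypipecolic acid, the mobile signal of systemic resistance, had 0, 23, 3 and 62. In all of these the triple mutant was highest and Col-0 lowest.

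Genes that inactivate salicylic acid or restrain its response were higher too. *UGT76B1*, a glucosyltransferase that conjugates salicylic acid and isoleucic acid, had no read in Col-0, 17 in *suvr5-1*, none in the double mutant and 270 in the triple mutant, a ratio to *suvr5-1* of 24.5 (95% interval 15.0 to 42.7, adjusted P = 4.87e-85 by Fisher's exact test). *AT4G10500*, the salicylic acid 3-hydroxylase gene *DLO1*, had 9, 76, 29 and 381 reads, and *NIMIN1*, a protein that binds the receptor NPR1, had 4, 45, 7 and 232. *WRKY62* had 2, 4, 1 and 33. The related oxygenase gene *DMR6*, which also hydroxylates salicylic acid, had 45, 648, 421 and 1668 reads and a ratio of 3.97, just under the rule. *WRKY38*, *NPR4* and *SAG101* were not called. Across the 8 called genes the triple mutant was always the highest library and *suvr5-1* never the lowest, with medians of 2.21, 10.3, 6.09 and 56.6 RPKM in Col-0, *suvr5-1*, *ldl1 ldl2* and the triple mutant. With all nuclear reads as the scale 5 genes of the list were called higher, and the ratios of *PBS3* (4.13) and *CBP60G* (4.01) lie close to the limit of 4.

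Some receptor kinases of the cysteine-rich family (CRK) and some wall-associated kinases (WAK) were called higher as well. CRKs carry DUF26 domains outside the cell and many are induced by pathogens and salicylic acid, and WAKs bind pectin. Of 33 CRK genes tested 13 were called higher and none lower, against 3.81% and 1.47% of all tested genes. Their median log2 ratio was 1.02. *CRK6* had 8, 188, 249 and 582 reads in Col-0, *suvr5-1*, *ldl1 ldl2* and the triple mutant (log2 ratio 2.26), and *CRK7* had 2, 85, 57 and 258 (2.23). *CRK14* had 7, 67, 139 and 186 (2.1), and *CRK36* had 13, 35, 41 and 133 (2.55). Col-0 was the lowest library in each, and the triple mutant the highest. *CRK40*, the member with the most reads, had 788 reads in *suvr5-1* and 923 in the triple mutant and was not called (0.85). Of *CRK6* 67.8% of the 30-base exon stretches occur once in the genome, so its level is understated. When each position and strand was counted once, 6 CRK genes were called.

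Of 10 WAK genes tested 3 were called higher, against 3.81% of all tested genes. *WAK1*, a receptor of oligogalacturonide fragments of pectin, had 427 reads in Col-0, 1970 in *suvr5-1*, 2624 in the double mutant and 5642 in the triple mutant, a ratio of the triple mutant to *suvr5-1* of 4.42 (95% interval 4.20 to 4.65). *WAK3* had 24, 93, 42 and 373 reads, a ratio of 6.19, and *WAKL2* had 25, 10, 102 and 26, a ratio of 4.01. The triple mutant was thus the highest for *WAK1* and *WAK3* but not for *WAKL2*, where the double mutant was. *WAK1* and *WAKL2* lie close to the 4-fold rule, and 1 gene of the family was called with all nuclear reads as the scale.

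WRKY factors, the plant transcription factors that bind the W-box, numbered 31 tested genes. Of these 10 were called higher and 1 lower, against 3.81% and 1.47% of all tested genes. Their median log2 ratio was 1.26. *WRKY50*, known for activation of *PR1*, had 11, 90, 48 and 408 reads in Col-0, *suvr5-1*, *ldl1 ldl2* and the triple mutant (log2 ratio 2.81). *WRKY75* had 30, 30, 18 and 184 (3.24), and *WRKY53*, a promoter of leaf senescence, had 22, 159, 122 and 460 (2.16). *WRKY18* was highest in the double mutant, with 128, 94, 1252 and 302 reads (2.31). The others called higher were *WRKY30*, *WRKY31*, *WRKY41*, *WRKY58*, *WRKY61* and *WRKY62*. *WRKY65* was the one that fell, with 46, 36, 12 and 2 reads and a ratio of 0.0857 (95% interval 0.01 to 0.333).

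The core of the W-box, TTGAC, was searched on both strands of the 250 bases before each gene's start in the TAIR10.1 annotation of NCBI RefSeq. It was found at 45.4% of the 10767 tested protein-coding genes, at 239 of the 424 called higher (56.4%) and at 66 of the 163 called lower (40.5%). Among the CRK genes it was found at 25 of the 33 tested (75.8%) and at 11 of the 13 called higher (84.6%), the exceptions being *CRK12* and *CRK13*. It was found at 3 of the 8 salicylic acid genes called higher (37.5%), at 5 of the 12 tested (41.7%) and at 5 of the 11 called WRKY genes (45.5%). The sequences of *CRK14* (chr4:12156882-12157131, minus strand) and *EDS5* (chr4:18185187-18185436, plus strand) are given as a receptor gene and a salicylic acid gene that hold it, 5′ to 3′ on the gene's strand, with each TTGAC or its complement GTCAA in capitals. A match is a stretch of letters and no measure of binding.
CRK14: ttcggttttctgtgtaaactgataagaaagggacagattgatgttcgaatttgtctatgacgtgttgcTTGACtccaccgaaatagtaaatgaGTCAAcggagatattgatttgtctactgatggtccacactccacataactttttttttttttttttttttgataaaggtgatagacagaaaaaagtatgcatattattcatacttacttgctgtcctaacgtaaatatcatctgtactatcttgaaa
EDS5: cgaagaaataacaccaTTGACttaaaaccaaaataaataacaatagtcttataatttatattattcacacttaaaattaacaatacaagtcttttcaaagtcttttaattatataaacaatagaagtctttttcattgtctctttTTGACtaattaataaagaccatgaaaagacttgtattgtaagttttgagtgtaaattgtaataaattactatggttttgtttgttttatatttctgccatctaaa

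Genes of the early response to microbes and of jasmonate were examined next. Of 12 genes of pattern-triggered immunity *WRKY18* was the one called, against 3.81% called higher among all tested genes, and the median log2 ratio was 0.79. Of 13 tested genes of jasmonate, the wound hormone, 4 were called higher, with a median of 1.51. *LOX3*, a lipoxygenase of jasmonate synthesis, had 59, 140, 1371 and 491 reads in Col-0, *suvr5-1*, *ldl1 ldl2* and the triple mutant (log2 ratio 2.44), and the repressor gene *JAZ5* had 48, 74, 459 and 227 (2.24). *VSP2*, a storage protein that marks the jasmonate response, had 45, 48, 82 and 218 (2.81), and *JAZ10* had 15, 5, 79 and 41 (3.66). The double mutant was the highest library for *LOX3*, *JAZ5* and *JAZ10*, and the triple mutant for *VSP2*. The medians of the 4 called genes were 6.87 RPKM in Col-0, 7.02 in *suvr5-1*, 50.2 in the double mutant and 41.0 in the triple mutant. *MYC2*, the master transcription factor of the pathway, had 492 reads in *suvr5-1* and 686 in the triple mutant and was not called (1.1).

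In 12 genes of the rapid stress response, the transcripts that touch, wounding and handling raise within minutes, the median was 0.64, and *GRX480*, a glutaredoxin of the salicylic acid and jasmonate crosstalk, was the one called higher, with 12, 148, 480 and 648 reads in the same order (2.76). Of 8 senescence genes *WRKY53* and *WRKY75*, which are also on the WRKY list, were called higher, and the median was 0.97. The ratio was above 0 in 6 of the 8 and below 0 in 2. *SEN1* fell most, with 1631 reads in *suvr5-1* and 404 in the triple mutant (log2 ratio −1.39), and was not called. The share called higher over all tested genes was 3.81%. The time from harvest to freezing is not given in the sources used here, and the part of handling in these values was not tested.

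**Figure D2:**
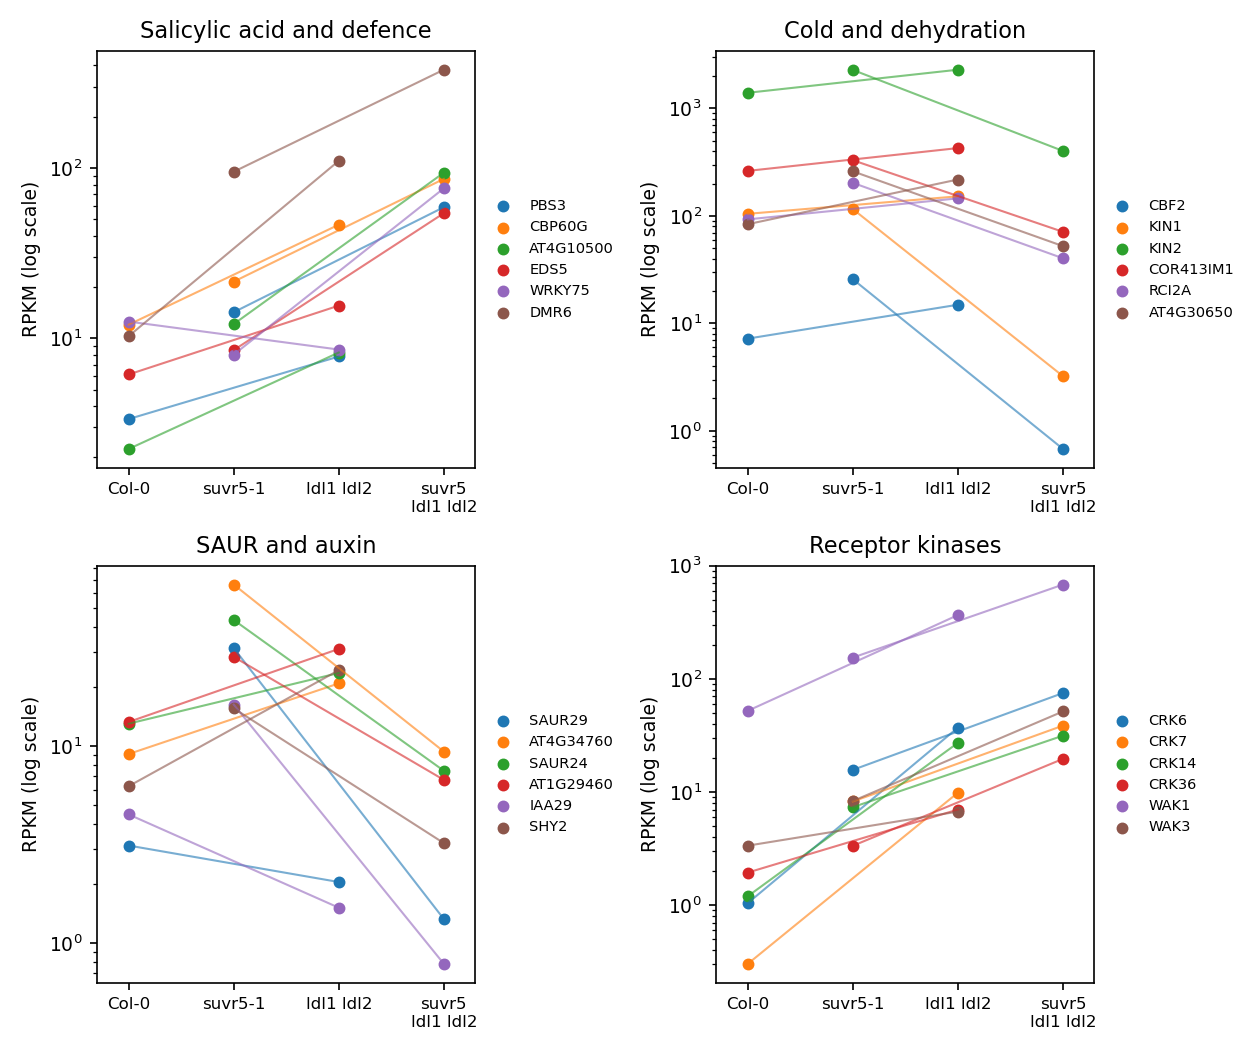
Levels in RPKM, on a log axis, of selected genes in the 4 libraries, 1 point for each library. The triple mutant point is the lowest for *KIN1*, at 3.23 RPKM, and the highest for *PBS3*, at 58.9 RPKM.

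Cold-response genes led the decreases. Among genes with at least 100 reads in *suvr5-1*, *CBF2*, a transcription factor that switches on cold-response genes, had 21 reads in Col-0, 117 in *suvr5-1*, 38 in the double mutant and 2 in the triple mutant, and it was 37.9-fold lower in the triple mutant than in *suvr5-1* (95% interval 10.3 to 317, adjusted P = 9.63e-22 by Fisher's exact test). *KIN1*, a small cold- and abscisic acid-induced protein, had 256, 442, 326 and 8 reads, or 105, 116, 152 and 3.23 RPKM, and was 35.8-fold lower (95% interval 18.0 to 83.5). For both genes the triple mutant lay below the other libraries, and for *KIN1* those other libraries were within a narrow range of each other.

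Of 18 cold and dehydration genes tested 9 were called lower and 1 higher, against 1.47% and 3.81% of all tested genes. Their median log2 ratio was −1.71 against 0.07 for all tested genes. The factors *CBF1* and *DREB1A*, which is *CBF3*, had 15, 68, 3 and 2 reads and 30, 92, 14 and 4 reads in Col-0, *suvr5-1*, *ldl1 ldl2* and the triple mutant. Cold-regulated genes that encode protective proteins fell too. *KIN2* fell by 2.50 on the log2 scale, with 3098, 7890, 4446 and 902 reads, and *COR413IM1*, a protein of the chloroplast inner envelope, fell by 2.21, with 791, 1552, 1129 and 217. *RCI2A*, a small membrane protein, had 241, 823, 331 and 106 reads, its relative *AT4G30650* had 207, 1003, 472 and 131, and *RCI2B* had 15 reads in *suvr5-1* and none elsewhere. Of the 9 genes the triple mutant was the lowest of the 4 libraries in 8 and *suvr5-1* the highest in 6. The double mutant was not low as a group, since the median log2 ratio of the list in *ldl1 ldl2* over Col-0 was 0.71.

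The list was not uniform. *LEA4-5*, a late embryogenesis abundant protein that rises on drying, was called higher with 64, 2, 7 and 14 reads, a ratio of 10.8 (95% interval 2.48 to 97.9). *SAG21*, another protein of that family, had 3951 reads in *suvr5-1* and 5485 in the triple mutant (log2 ratio 1.1) and was not called. *COR47* (−1.56) and *ERD10* (−1.73), both dehydrins, were not called. None of the 10 tested genes of abscisic acid, the hormone of drought, was called in either direction, and their median was 0.05. When each position was counted once 5 cold genes were called lower, and 3 when replicates were assumed to vary with a dispersion of 0.1.

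Several single genes fell with them. *FSD1*, an iron superoxide dismutase, had 287, 193, 127 and 14 reads in Col-0, *suvr5-1*, *ldl1 ldl2* and the triple mutant (log2 ratio −3.16). *AT3G05160*, a sugar transporter family gene, had 140, 185, 5 and 9 reads (−3.74), so it was low in both libraries with the *ldl1* and *ldl2* mutations. *AT4G18970*, a GDSL lipase family gene, had 11, 196, 12 and 13 (−3.29), so here *suvr5-1* was the library that stood apart. *AT5G02760*, a phosphatase 2C gene also named *APD7*, had 76, 522, 233 and 29 reads (−3.54). *AT5G12050* had 40, 146, 47 and 5 (−4.24), *AT1G08890* had 51, 140, 70 and 11 (−3.04), and *AT5G07410* had 3, 123, 37 and 10 (−3.0). In RPKM *suvr5-1* was the highest library for all of these 7 genes except *FSD1* and *AT3G05160*, where Col-0 was.

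SAUR genes, small auxin-induced genes that promote cell expansion, were the largest group of lower genes. Of 78 on the list 51 lay in the stretches and 41 were tested. Of these 15 were called lower and none higher, against 1.47% and 3.81% of all tested genes. Their median log2 ratio was −1.55. The ratio was below 0 in 33 of the 41. *SAUR29* had 7 reads in Col-0, 110 in *suvr5-1*, 4 in the double mutant and 3 in the triple mutant (ratio 0.0421, 95% interval 0.00854 to 0.126). *AT4G34760*, also named *SAUR50*, had 24, 272, 48 and 25 reads (log2 ratio −2.82), and *AT4G38860* had 153, 658, 165 and 146 and was not called (−1.55). In all of these *suvr5-1* stood above the other libraries. Of the 15 called genes *suvr5-1* was the highest of the 4 in 13 and the triple mutant the lowest in 12, with medians of 8.44, 22.9, 12.9 and 3.21 RPKM in Col-0, *suvr5-1*, *ldl1 ldl2* and the triple mutant.

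The SAUR calls rested on short and similar genes. With only genes of which at least 90% of 30-base exon stretches occur once in the genome, 7 were called lower, and with a dispersion of 0.1 between replicates assumed 2 were. Aux/IAA and cell wall genes were examined beside them. Of 15 Aux/IAA genes, which encode repressors of the auxin response, 2 were called lower, against 1.47% of all tested genes. Their median log2 ratio was −0.57. *SHY2*, which is *IAA3*, had 25, 97, 85 and 13 reads, and *IAA29* had 17, 96, 5 and 3. Of 17 tested xyloglucan endotransglucosylases, which loosen and rebuild cell walls, 3 were called higher and 1 lower. The shares over all tested genes were 3.81% and 1.47%. The median of the 17 was −0.80. *XTR6* had 33 reads in *suvr5-1* and 132 in the triple mutant, *XTH18* had none and 30, and *XTH29* had none and 8. With *suvr5-1* set at 3 reads the ratio of *XTH18* was 15.4, and the lower 95% limit of its ratio was 11.8. *XTH15*, with 14 reads and none, was the one called lower, and *XTH4*, with 3842 and 835 reads, was not called (−1.58). None of the 9 expansins was called, and their median was 0.63.

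TGTCTC, the auxin response element, was searched in the same 250 bases on both strands. It was found at 10.9% of all tested protein-coding genes, at 6 of the 41 SAUR genes tested and at 4 of the 15 called lower. *SAUR20* (chr5:5966786-5967035, minus strand) and *SAUR22* (chr5:5975088-5975337, minus strand) are called genes that hold it, here in capitals together with its complement GAGACA. The called gene *AT5G18030* lies between them.
SAUR20: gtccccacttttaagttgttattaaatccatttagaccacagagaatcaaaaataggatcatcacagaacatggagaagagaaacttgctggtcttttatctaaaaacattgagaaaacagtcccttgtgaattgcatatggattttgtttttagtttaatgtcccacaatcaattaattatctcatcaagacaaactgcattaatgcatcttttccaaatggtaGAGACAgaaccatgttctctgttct
SAUR22: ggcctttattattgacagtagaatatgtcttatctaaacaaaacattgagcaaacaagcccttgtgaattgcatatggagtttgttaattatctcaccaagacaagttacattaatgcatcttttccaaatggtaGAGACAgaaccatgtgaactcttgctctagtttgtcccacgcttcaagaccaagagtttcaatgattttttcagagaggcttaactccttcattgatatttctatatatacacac

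The palindromic octamer TACTAGTA, the sequence that the zinc fingers of SUVR5 recognise, was searched in the same windows, although SUVR5 is mutated in both libraries compared. It was found at 81 of the 10767 genes (0.752%), at 3 of the 424 called higher (0.708%) and at 5 of the 163 called lower (3.07%). The 95% intervals over genes were 0.241% to 2.06% for the higher genes and 1.32% to 6.98% for the lower genes. The lower genes that held it were *IAA29*, *AT4G33625*, *TAR2*, *AT1G05370* and *AT1G10770*. *AT4G33625* had 151 reads in Col-0, 460 in *suvr5-1*, 107 in the double mutant and 74 in the triple mutant, and *TAR2*, an aminotransferase of auxin synthesis, had 25, 31, 16 and 4. *AT1G05370* had 3, 23, 10 and 0, and *AT1G10770* had 4, 32, 14 and 0. In RPKM the triple mutant was the lowest library for all 5 genes, and *suvr5-1* was the highest for all except *TAR2*, where Col-0 was. The higher genes were *AT1G06620*, *AT1G07400* and *HSP70*, a heat shock chaperone with 173, 67, 162 and 288 reads (log2 ratio 2.73), in which *suvr5-1* was the lowest library. The windows of *AT1G06620*, *AT1G07400* and *AT1G10770* overlap an annotated exon.

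The sequences of 3 lower genes and of *HSP70* show where the octamer, in capitals, lies in the window. They are *IAA29* (chr4:15583082-15583331, plus strand), *AT4G33625* (chr4:16154743-16154992, minus strand), *TAR2* (chr4:12731332-12731581, minus strand) and *HSP70* (chr3:3993887-3994136, minus strand) of TAIR10.1. The octamer reads the same on both strands, and its place relative to the start differed between the genes.
IAA29: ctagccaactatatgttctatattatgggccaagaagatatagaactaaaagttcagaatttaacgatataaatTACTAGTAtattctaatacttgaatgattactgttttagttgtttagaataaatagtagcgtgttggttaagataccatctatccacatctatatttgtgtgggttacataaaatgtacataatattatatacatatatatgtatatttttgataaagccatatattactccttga
AT4G33625: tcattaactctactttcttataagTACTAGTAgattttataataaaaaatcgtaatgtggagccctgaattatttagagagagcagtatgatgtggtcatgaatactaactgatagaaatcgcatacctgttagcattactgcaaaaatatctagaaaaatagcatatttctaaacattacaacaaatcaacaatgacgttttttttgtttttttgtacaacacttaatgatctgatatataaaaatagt
TAR2: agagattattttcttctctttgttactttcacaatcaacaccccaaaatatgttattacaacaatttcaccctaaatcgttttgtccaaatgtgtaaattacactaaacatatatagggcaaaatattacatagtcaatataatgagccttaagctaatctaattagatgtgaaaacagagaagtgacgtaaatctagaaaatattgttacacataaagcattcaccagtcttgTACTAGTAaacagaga
HSP70: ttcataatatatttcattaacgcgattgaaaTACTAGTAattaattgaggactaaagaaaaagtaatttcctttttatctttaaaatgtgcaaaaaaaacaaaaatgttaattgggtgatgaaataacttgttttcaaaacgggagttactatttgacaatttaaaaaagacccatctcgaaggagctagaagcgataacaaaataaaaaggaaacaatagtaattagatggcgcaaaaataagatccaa

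Genes called in the same direction also lay side by side, in 19 runs of at least 3 among 5 consecutive tested genes. Over all tested genes 3.81% were called higher and 1.47% lower, and the number of runs these shares alone would give was not computed. In some runs, such as those that hold *RLP34* and *DXPS1*, every called gene shares exon sequence with another gene. The same reads can count for more than 1 gene there. A run of *SAUR19*, *SAUR20*, *AT5G18030*, *SAUR22*, *SAUR23* and *SAUR24* on chromosome 5 (5962773 to 5984308) held 6 lower genes among 11 tested. The reads in *suvr5-1* and the triple mutant were 20 and 1 for *SAUR19*, 97 and 8 for *SAUR20*, 72 and 8 for *AT5G18030*, 79 and 4 for *SAUR22*, 69 and 9 for *SAUR23*, and 126 and 14 for *SAUR24*. All 6 share sequence with close copies, with between 58.9% (*SAUR19*) and 89.2% (*SAUR23*) of 30-base exon stretches unique. A further run of this family, *AT1G29430*, *SAUR63*, *AT1G29450* and *AT1G29460* on chromosome 1 (10302585 to 10308246), held 4 lower genes among 5. *AT1G29450* had 102 reads in *suvr5-1* and 9 in the triple mutant.

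On chromosome 4 (12145035 to 12160279) the 5 tested genes *CRK12*, *CRK13*, *AT4G23215*, *CRK14* and *CRK15* were all called higher. *AT4G23215*, a transcribed pseudogene, had 0, 13, 48 and 92 reads in Col-0, *suvr5-1*, *ldl1 ldl2* and the triple mutant, *CRK13* had 1, 15, 2 and 54, and *CRK15* had 11, 21, 78 and 57. On chromosome 1 (7428112 to 7466164) *WAK3*, *WAK1*, the extensin gene *EXT3*, *AT1G21220*, *AT1G21313* and *AT1G21320* were 6 higher genes among 11. *EXT3*, a structural cell wall protein, had 228, 838, 193 and 2762 reads, and *AT1G21313* overlaps it on the other strand, so these reads cannot be told apart. Another run on chromosome 1 (465616 to 479112) held *HFR1*, a factor of light signalling with 50, 161, 80 and 16 reads, beside *AT1G02350*, *AT1G04107* and *AT1G02380*, 4 lower genes among 6. *CBF2*, *DREB1A* and *CBF1* also lie together on chromosome 4 (13015250 to 13022996), 3 lower genes among 5, a run singled out after its values were seen. So was a run of 4 higher genes among 4 on chromosome 1 (6100961 to 6110120), *AT1G17744*, *PGDH*, *AT1G05317* and *PEPR2*, all of which share exon sequence with an overlapping gene.

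**Figure D3:**
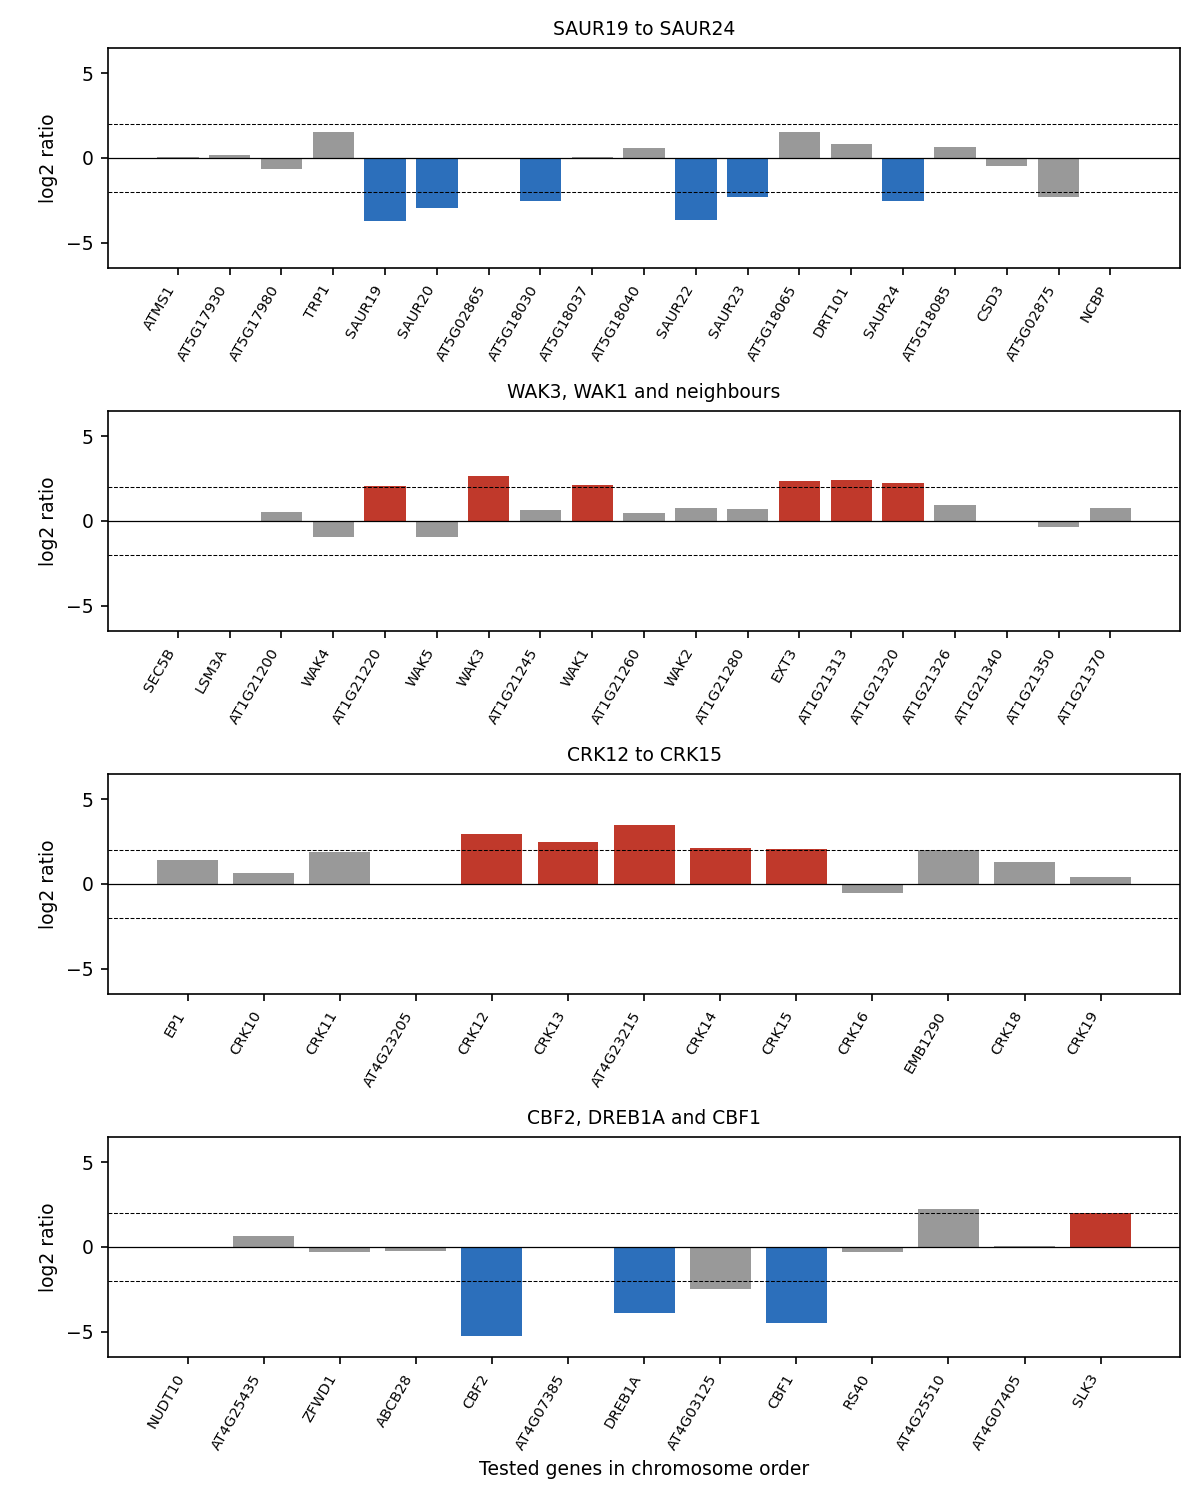
Log2 ratio of the triple mutant to *suvr5-1* for the tested genes along the runs of neighbouring called genes, in chromosome order. Coloured bars are called genes and grey bars are not called, and the run of CRK genes on chromosome 4 has 5 of 5 called higher while the run of SAUR genes on chromosome 5 has 6 of 11 called lower.

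The most abundant leaf transcripts moved together by a small amount. All 24 tested nuclear photosystem genes were below 0, with a median log2 ratio of −0.56, and none was called. *CAB1*, a chlorophyll a/b-binding protein of photosystem II, had 164901 reads in Col-0, 267525 in *suvr5-1*, 154360 in the double mutant and 98281 in the triple mutant (log2 ratio −0.82). The share of mapped reads on the chloroplast genome was 7.82%, 7.65%, 10.7% and 6.82% in the same order. By contrast the 154 tested nuclear ribosomal protein genes had a median of −0.01 with none called. In bulk leaves fewer cells of a type and less RNA per cell cannot be told apart.

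None of the 17 glucosinolate genes, which make and break the mustard oil defence compounds, was called, although 16 were above 0 and the median was 1.11. The exception was *ESM1*, which shapes glucosinolate hydrolysis, with 25759 reads in *suvr5-1* and 4633 in the triple mutant (log2 ratio −1.85). None was called of 10 flavonoid genes (median 0.21), 11 iron genes (0.00), 9 clock genes (−0.28), 12 aquaporins (0.21), 22 histone genes (0.34) or 15 ethylene response factors (0.19). *TT4*, chalcone synthase of the flavonoid pathway, had 22, 369, 21 and 422 reads in Col-0, *suvr5-1*, *ldl1 ldl2* and the triple mutant, so it was high in both libraries with the *suvr5* mutation and not called (0.82). Of 10 flowering time genes *FLC* (chromosome 5, 3173382 to 3179448) was the one called, against 3.81% called higher among all tested genes. It had 1 read in Col-0, 7 in *suvr5-1*, 30 in the double mutant and 44 in the triple mutant, so both libraries with the *ldl1* and *ldl2* mutations were higher than both without. The ratio of the triple mutant to *suvr5-1* was 9.70 (95% interval 4.33 to 25.5), and part of its exon sequence is shared with an overlapping gene.

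**Figure D4:**
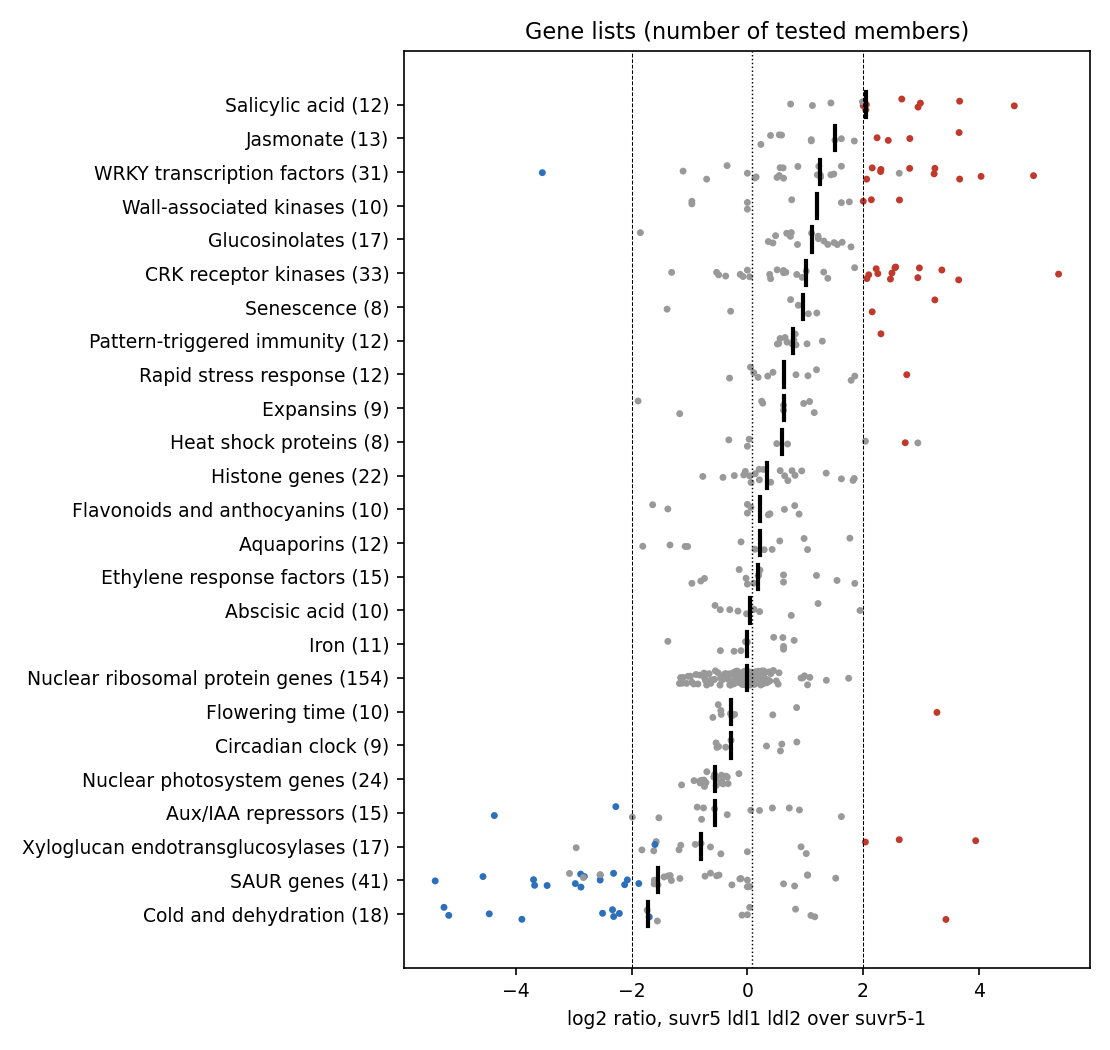
Log2 ratio of the triple mutant to *suvr5-1* for the tested members of the gene lists, 1 point a gene, with the median of each list. Salicylic acid genes have a median of 2.05, and SAUR genes (−1.55) and cold genes (−1.71) lie on the other side of 0.

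Genes that the study had assayed one by one gave mixed values. *PBS3* was called higher, while *AT3G12830*, a SAUR gene, had 28, 84, 32 and 157 reads in Col-0, *suvr5-1*, *ldl1 ldl2* and the triple mutant (log2 ratio 1.53) and *AT1G12160*, a flavin monooxygenase gene, had 16, 63, 31 and 94 (1.2), neither of them called. *AT3G12830* thus lay on the other side of 0 from most SAUR genes. *AGO3* had 5 reads in *suvr5-1* and none in the triple mutant. *ACT7*, an actin often used as a reference, had 278.5 RPKM in *suvr5-1* and 369.6 in the triple mutant (0.41).

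Markers of leaf cells and other organs were set beside these results. The summed level of the 4 mesophyll markers measured, of 12 on the list, was 19646 RPKM in Col-0, 19905 in *suvr5-1*, 14210 in the double mutant and 15841 in the triple mutant, with none called. Summed guard cell markers were at 18.5 RPKM in *suvr5-1* and 25.6 in the triple mutant, phloem markers at 242 and 381, and root markers at 13.8 and 15.9. The guard cell markers *FAMA* (log2 ratio 0.75) and *MYB60* (−0.58) went different ways. Of the seed markers 3 of 4 had no read in either library. Flower markers were at 6.83 and 14.6 RPKM in sum. Of these the floral organ genes *AG*, with 0, 4, 10 and 18 reads in Col-0, *suvr5-1*, *ldl1 ldl2* and the triple mutant, and *SEP1*, with 16, 0, 9 and 33, were called higher. Other floral organ genes went the other way and were not called. *PI* had 0, 9, 0 and 2 reads in the same order (log2 ratio −1.54), and *SEP3* had 5, 28, 51 and 15 (−0.28). *SEP2* had 1 read in *suvr5-1* and none elsewhere. The anther gene *A9* had no read. Whether differences in tissue make-up played a part in the lists above was not tested.

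The loss of LDL1 and LDL2 was also measured in plants with SUVR5, by *ldl1 ldl2* against Col-0, a pair that shares no library with the one above. There 509 of 11802 tested genes were called higher (4.31%) and 242 lower (2.05%). In both pairs 78 genes were higher, which is 16.9% of the 461 and 15.3% of the 509, and 8 were lower, 4.49% of the 178 and 3.31% of the 242. Calls in opposite directions numbered 49. Of these 27 genes were higher in the triple mutant over *suvr5-1* and lower in *ldl1 ldl2* over Col-0. They made up 5.86% of the 461 and 11.2% of the 242. The reverse held for 22 genes, 12.4% of the 178 and 4.32% of the 509. Over 7022 genes with at least 50 reads in each pair the log2 ratios had a Pearson r of 0.14 and a Spearman rho of 0.13, across genes, which are not independent replicates. The median log2 ratio in the double mutant over Col-0 was 0.19 for the 432 of the higher genes tested there, 0.19 for 173 of the lower genes and 0.00 for all genes.

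Called higher in both pairs were *GRX480*, *FLC*, *LOX3*, *JAZ5*, *WRKY18*, *WRKY50*, *WRKY53*, *JAZ10*, *CRK6*, *CRK7*, *CRK14*, *CRK15*, *AT4G23215*, *WAK1*, *WAKL2*, *XTH18*, *MPK11* and *AT4G03985* among the genes given with values above. Of those called in opposite directions, the 5 with the most reads are given. *ELI3-2*, a cinnamyl alcohol dehydrogenase family gene induced by elicitors, had 396 reads in Col-0, 141 in *suvr5-1*, 30 in the double mutant and 956 in the triple mutant, log2 ratios of 3.39 for the triple mutant over *suvr5-1* and −3.53 for *ldl1 ldl2* over Col-0. *AT3G18250* had 137, 106, 3 and 502 reads (2.87 and −5.32), and *AT4G23680* had 272, 48, 19 and 199 (2.68 and −3.65). *ABCG40* (3.67 and −2.36) and *AT3G22600* (4.14 and −2.55) had the same pattern. In these 5 genes *ldl1 ldl2* was the lowest of the 4 libraries.

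**Figure D5:**
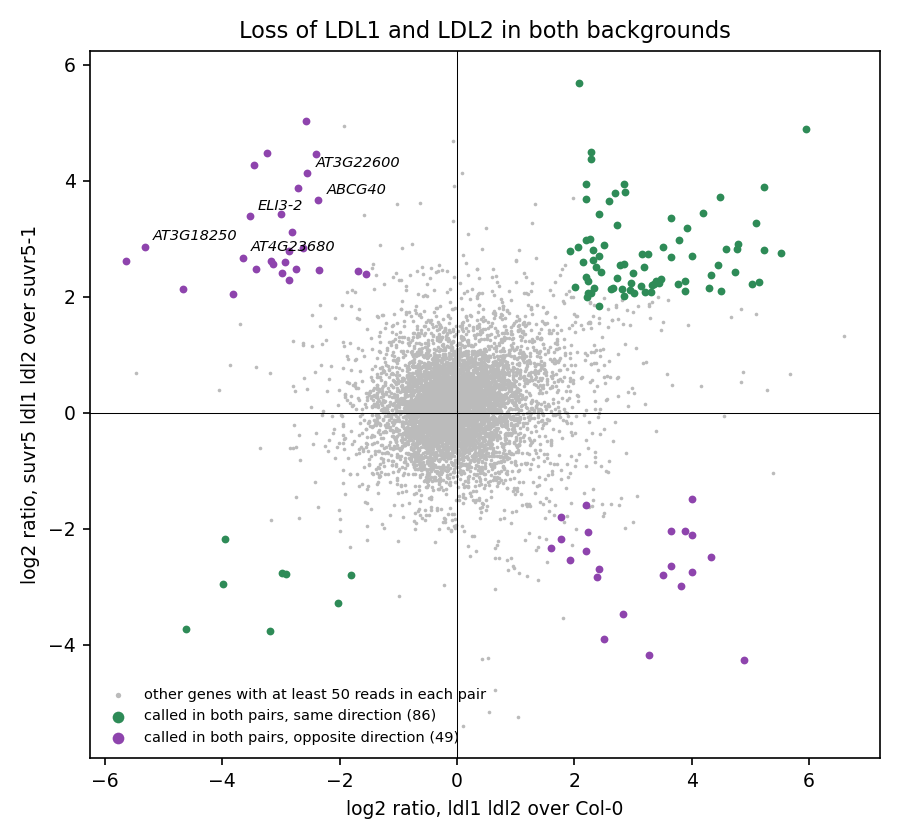
Log2 ratio of the triple mutant to *suvr5-1* against that of *ldl1 ldl2* to Col-0. Grey points are genes with at least 50 reads in each pair. Coloured points are the genes called in both pairs, in the same or in opposite directions, whatever their reads. Over the 7022 genes with at least 50 reads in each pair the points form a broad cloud with r of 0.14.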

How the data were processed

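Poly(A) RNA of leaves was sequenced by the authors on an Illumina Genome Analyzer, with 1 library for each of 4 genotypes. The deposited files hold the mapped positions and strands of reads, with no score, count or normalization by the authors, and the submitters' processing notes name Bowtie. Its settings and the assembly used are not given in the sources used here.

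Windows of 250 kb were compared with the exons of TAIR10.1 (NCBI RefSeq) at displacements of up to 20000 bp, and 204 of 478 were kept, with displacements between −26 and 17 bp. Each read start was counted on every gene whose merged exons held it, on either strand, and scaled by the reads on genes. Mapped reads numbered between 10406023 and 15083462 a library, and 27.9% to 34.3% of the nuclear reads fell on the genes counted.

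The test was a 2-sided Fisher's exact test for each gene, adjusted by the Benjamini-Hochberg method over all tested genes, with calls at a ratio over 4 and an adjusted P under 0.01. It compares 2 libraries. Ratios have 95% exact conditional intervals. For the ratios given and their medians a library without a read was set at 3 reads. For calls such a gene passed the ratio limit without this setting.

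Genes named were the 12 highest and 12 lowest called genes with at least 100 reads in the higher library, up to 4 called members in each direction and the member with the most reads of each list, the genes mutated or assayed singly by the study, the 5 longest runs of called genes (at least 3 among 5 consecutive tested genes) and the 5 genes with the most reads called in opposite directions. Others were named after their values were seen. The members and the 27 lists were chosen with earlier results of these data known. Alternatives were another library size (median of ratios, all nuclear reads), at least 10 reads, positions counted once, displacements up to 10 bp, genes sharing no exon base, a beta-binomial test with a dispersion of 0.1, a ratio over 2, whole genes, and, chosen after seeing the data, genes with 90% unique sequence. Python 3.11.15, numpy 2.4.6, pandas 2.3.3, SciPy 1.17.1 and matplotlib 3.10.9 were used.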

Additional observations from a re-analysis of the deposited data

Results flagged for a closer look

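Some genes and gene lists had a log2 ratio, or a median over the list, of opposite sign in the 2 pairs of libraries that differ by *ldl1* and *ldl2*. The 5 genes given here are those with the most reads among the 49 called in opposite directions. The 2 lists given here had medians well away from 0 in both pairs. Other lists also had medians of opposite sign, among them the SAUR genes (−1.55 and 0.22) and the glucosinolate genes (1.11 and −0.09). With 1 library for each genotype the difference between the pairs was not tested. The log2 ratio of the triple mutant over *suvr5-1* and that of *ldl1 ldl2* over Col-0 were 4.14 and −2.55 for *AT3G22600*, 3.67 and −2.36 for *ABCG40*, 3.39 and −3.53 for *ELI3-2*, 2.87 and −5.32 for *AT3G18250*, and 2.68 and −3.65 for *AT4G23680*. For the cold and dehydration genes the median log2 ratio was −1.71 in the first pair and 0.71 in the other. For the xyloglucan endotransglucosylases it was −0.80 and 0.71. The 95% interval of the median in the first pair, taken over genes, which are not independent replicates, held 0 for both lists, −2.50 to 0.04 for the cold genes and −1.58 to 0.93 for the xyloglucan endotransglucosylases.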

How the results depend on the processing

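Of the 461 genes called higher and the 178 called lower in the triple mutant, 166 and 82 were called when each position and strand was counted once, of which 165 and 72 were among the genes called with all reads. With a beta-binomial test and a dispersion of 0.1 between plants 112 and 15 were called, and at a ratio over 2 the counts were 1215 and 569. With all nuclear reads as the library size 316 genes were lower and 308 higher. The counts of genes called in both backgrounds, 86 in the same and 49 in opposite directions, were 25 and 16 with positions counted once and 11 and 3 with the beta-binomial test. *LDL2* passed the rule with all nuclear reads as the library size (log2 ratio −2.05, adjusted P = 0.00533 by Fisher's exact test). Under the other settings the counts of higher and lower genes stayed within 1.5 times, between 314 and 468 and between 135 and 234. Higher genes made up 88.2% of the calls of the beta-binomial test. The 111 genes named by rule include genes that were not called and so had no call to lose. Of the called ones, 48 lost their call with the beta-binomial test and 28 with positions counted once. With all nuclear reads 11 lost it, and 8 with the median of ratios. No called gene among them changed direction, which was not examined for genes without a call. Over all settings the median log2 ratio lay between 1.75 and 2.07 for the salicylic acid genes, between −2.07 and −1.13 for the cold genes and between −1.98 and −1.24 for the SAUR genes. Genes with fewer than 10 reads in a library, most of the called genes, have wide intervals, and calls there depend on depth. No paired analysis was possible because each genotype had 1 library.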
